A study of Mus musculus with 12 samples.

Results

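The 72 genes described here encode the proteins of the cytosolic ribosome, together with a few close relatives. They were chosen by gene name alone: every region named for a gene starting with Rpl or Rps and a digit, for Rplp0, Rplp1 or Rplp2, or for Rpsa, without names marked as pseudogenes and without the Rps6k kinases. This took 72 of the 11240 gene names and 126 of the 36387 regions in the table. Of the 72 genes, 40 encode proteins of the large subunit and 27 proteins of the small subunit. The other 5 (Rpl3l, Rpl22l1, Rpl36al, Rps27l and Rps23rg1) are paralogs or copies that the name rule also takes, and they are kept apart where it matters. Fau, which encodes a ribosomal protein under another name, falls outside the rule and is given at the end.

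The study followed H3K27ac, the acetyl group on lysine 27 of histone H3 that marks promoters and enhancers in use, by ChIP-seq (chromatin immunoprecipitation and sequencing) of regenerating mouse liver. The groups are Cox10-/- liver and liver labelled wild-type. Per the labels' protocols, all mice carried a floxed Cox10 allele and received AAV8-Cre, which deletes it, or AAV8-GFP. Cox10 takes part in making heme A, which cytochrome c oxidase needs. All had a single retroorbital injection of virus, a 70% partial hepatectomy 4 weeks later, and dissection of the regenerating liver on day 2. The sources used here give no age, sex or strain, and no promoter for Cre. Minced liver was used without a sort, so each library holds all its cell types. Each genotype had 3 H3K27ac libraries, and the input libraries were not used here.

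Each ribosome holds one copy of nearly every ribosomal protein, so the genes for them are transcribed in step and at high rates in growing cells. Their promoters are typically short, without a canonical TATA box, and begin transcription at a cytosine inside a pyrimidine run, which gives their mRNAs the 5′ terminal oligopyrimidine (TOP) tract. Through that tract mTORC1 and LARP1 control their translation. After partial hepatectomy hepatocytes grow and divide, and ribosome production is known to rise in them.

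Promoter sequences are shown first, because the genes differed in how far acetylation changed at a promoter and the sequences let the ends of that range be read side by side. They are, among ribosomal proteins with an entry in the RefSeq promoter table (GRCm38.p6), the 4 with the smallest changes and then the 4 with the largest falls. Each runs from 120 bases before the start to 30 after it, 5′ to 3′ on the coding strand. The lead regions of Rpl12, Rpl5, Rpl10 and Rps18 begin after the printed window, and that of Rps21 ends before it. For these genes the change was measured beside the printed bases and not on them. Capitals mark matches to CTTTC on the coding strand within 50 bases of the start, and on either strand to the ETS motif CCGGAAG, the SP and KLF motif GGGCGG, the YY1 motif AAGATGGC, the E-box CACGTG, the TATA motif TATAAA, or the ATF4 and CEBP motif TGATGCAA. In Rpl35 a match to CCGCCC, which is GGGCGG read on the other strand, overlaps a CTTTC.
The windows are Rpsa at chr9:120127646-120127795 on the plus strand, Rpl12 at chr2:32961592-32961741 on the plus strand, Rpl35 at chr2:39005102-39005251 on the minus strand, Rpl5 at chr5:107900408-107900557 on the plus strand, Rps21 at chr2:180257259-180257408 on the plus strand, Rpl39 at chrX:37085193-37085342 on the minus strand, Rpl10 at chrX:74270696-74270845 on the plus strand, Rps18 at chr17:33955636-33955785 on the minus strand.
Rpsa: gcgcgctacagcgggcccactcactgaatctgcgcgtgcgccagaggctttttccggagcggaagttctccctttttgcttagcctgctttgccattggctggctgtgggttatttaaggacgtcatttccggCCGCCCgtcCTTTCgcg
Rpl12: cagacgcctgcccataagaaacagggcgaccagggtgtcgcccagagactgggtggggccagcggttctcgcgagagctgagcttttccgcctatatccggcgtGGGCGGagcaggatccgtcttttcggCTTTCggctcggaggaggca
Rpl35: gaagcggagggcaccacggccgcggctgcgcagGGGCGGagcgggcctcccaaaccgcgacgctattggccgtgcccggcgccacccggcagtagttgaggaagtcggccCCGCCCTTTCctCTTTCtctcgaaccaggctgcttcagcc
Rpl5: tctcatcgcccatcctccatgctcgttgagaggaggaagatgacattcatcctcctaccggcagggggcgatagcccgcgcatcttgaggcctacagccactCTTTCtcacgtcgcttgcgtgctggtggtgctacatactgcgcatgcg
Rps21: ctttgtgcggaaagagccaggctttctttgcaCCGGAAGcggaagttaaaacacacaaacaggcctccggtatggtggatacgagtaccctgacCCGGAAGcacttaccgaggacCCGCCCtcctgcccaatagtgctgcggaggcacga
Rpl39: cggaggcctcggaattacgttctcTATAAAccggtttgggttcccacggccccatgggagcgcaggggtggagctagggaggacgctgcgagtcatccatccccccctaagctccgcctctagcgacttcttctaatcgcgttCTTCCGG
Rpl10: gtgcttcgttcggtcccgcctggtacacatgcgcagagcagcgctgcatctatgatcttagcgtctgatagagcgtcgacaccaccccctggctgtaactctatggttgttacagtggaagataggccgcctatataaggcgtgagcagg
Rps18: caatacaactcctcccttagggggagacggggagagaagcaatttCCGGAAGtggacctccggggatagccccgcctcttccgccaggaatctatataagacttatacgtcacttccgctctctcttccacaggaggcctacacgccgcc

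Of the 4 promoters with the smallest changes, all held CTTTC near the start. None of the 4 with the largest falls did, 3 held CCGGAAG, and Rpl10 held no match. This contrast did not extend to the family: member promoters with CTTTC near the start had a median log2 fold change of -0.49, and those without it -0.44 (27 and 26 promoters, deposited scale).

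Each library held 3282878 to 3385453 reads in regions in Cox10-/- liver, and 3897454 to 4187377 in wild-type liver. The authors divided reads by 1 size factor per library, between 1.18 and 1.32 in Cox10-/- and between 0.730 and 0.782 in wild type, and values in that unit are called normalised reads here. Spike-in chromatin was added before the immunoprecipitation, but the sources used here do not say whether the size factors rest on it. On this deposited scale, 87.2% of all regions were lower in Cox10-/- and 4.46% higher at a limma adjusted p under 0.05, so calls are also given after centring each library on its median promoter region. Centring adds 0.91 to every log2 fold change and leaves differences between regions as they are. Cox10 itself carried 1 region, in an intron, with 60.3, 46.0 and 65.9 normalised reads in Cox10-/-, against 14.6, 17.8 and 12.8 in wild type; an acetylated intron does not check the deletion. All 5 hepatocyte markers with a promoter region (Alb, Apoa1, Cps1, Serpina1c and Ttr) were lower on both scales, with summed promoter levels of 736 to 894 normalised reads in Cox10-/- and 3030 to 3221 in wild type. Of 6 macrophage markers 2 had a promoter region (Cd14 and Cd68), 1 of them higher before and both after centring, with summed levels of 317 to 382 in Cox10-/- and 173 to 193 in wild type. The sole biliary marker with one, Sox9, held 43.9 to 62.1 in Cox10-/- and 52.0 to 67.7 in wild type. Endothelial, stellate, lymphocyte and erythroid markers had no promoter region. The part of cell makeup in the results below was not tested, and in whole tissue fewer cells of a type and less acetylation per cell cannot be told apart. The labels number the replicates without saying that they are separate animals, so p-values measure the spread between libraries, which may be technical.

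Acetylation at ribosomal protein promoters was lower in Cox10-/- liver on the deposited scale, but by less than at most promoters. For each gene, the region within 1 kb of a start with the highest mean signal was taken as its lead promoter. Of the 72 lead promoters, 66 were lower in Cox10-/-, 0 were higher and 6 did not pass the test (limma over all regions, Benjamini-Hochberg adjusted p under 0.05). Among the lead promoters of all 9663 genes with one, 93.8% were lower and 0.807% higher, so the share of members called lower is close to the background. The median log2 fold change of members was -0.46, a 1.37-fold lower level, against -0.82, 1.77-fold lower, over the 9591 genes outside the family. The middle 50% of members lay between -0.62 and -0.39, and the middle 50% of other genes between -1.10 and -0.61. By edgeR on the recovered reads 66 members were lower and 0 higher, and by DESeq2 63 and 0. Of all 9663 lead promoters edgeR called 9076 lower and 78 higher, and DESeq2 8863 and 58. At an unadjusted p under 0.05 limma also called 0 higher.

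**Figure D1:**
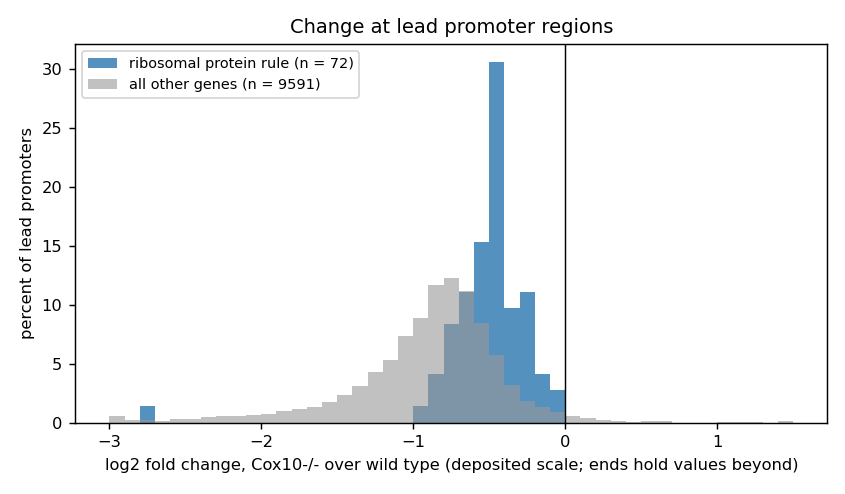
Percent of lead promoters (y axis) by log2 fold change in steps of 0.1, Cox10-/- over wild type on the deposited scale (x axis), for the 72 genes of the ribosomal protein rule and the 9591 other genes. The members form a narrow peak about a median of -0.46, to the right of the other genes' median of -0.82, with Rps23rg1 far to the left.

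The medians of the subunits lay close together. In the large subunit 36 of 40 lead promoters were lower, with a median of -0.46, and in the small subunit 26 of 27, with a median of -0.44. The relatives gave 4 of 5, and of all lead promoters 93.8% were lower. All Cox10-/- libraries lay below all wild-type libraries at 66 of the 72 lead promoters, and this held for 93% of all lead promoters. The groups overlapped at Rpl30, Rpsa, Rpl35, Rpl3l, Rpl5 and Rps9, and no member had all Cox10-/- libraries above wild type. Leaving out 1 library at a time kept 63 to 66 member promoters lower.

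**Figure D2:**
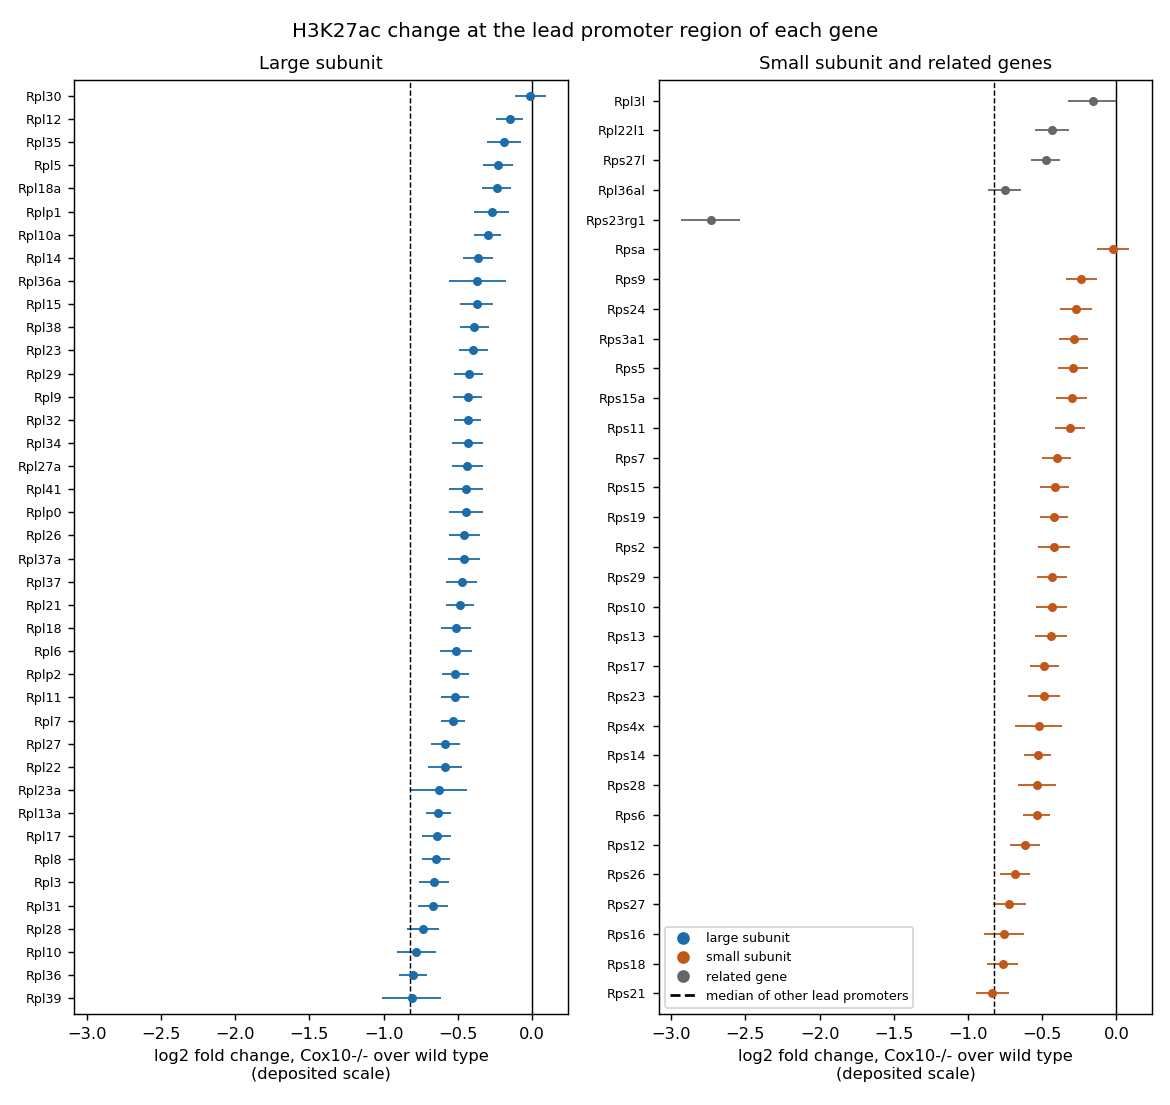
Log2 fold change of H3K27ac (x axis, Cox10-/- over wild type, deposited scale) at the lead promoter of 71 of the genes, with the limma SE as bars. Most genes lie between the dashed median of all other lead promoters (-0.82) and 0, from Rpl30 and Rpsa near 0 to Rps21 at -0.84, with Rps23rg1 alone at -2.73.

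After centring, most ribosomal protein promoters were higher in Cox10-/- liver relative to the median promoter. On this scale 60 of the 72 lead promoters were higher, 1 (Rps23rg1) was lower and 11 did not pass the test, where 32% of all lead promoters were higher and 22% lower. The median was 0.45, a 1.36-fold higher level, against 0.08 in the genes outside the family, and 71 of the 72 values were above 0. The large subunit had 35 of 40 higher and 0 lower, the small subunit 22 of 27 higher and 0 lower, and the relatives 3 of 5 higher and 1 lower. With reads scaled by edgeR's TMM, 68 members were higher and 1 lower, while 4741 of all 9663 lead promoters were higher and 1518 lower, against 3095 and 2126 with the promoter centring. The direction of change at these promoters therefore turns on the scale, and their position against other promoters is given next without one.

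Ribosomal protein promoters held a larger share of promoter reads in Cox10-/- liver. Their lead promoters took 1.04%, 1.04% and 1.05% of the reads in all lead promoters in the Cox10-/- libraries, against 0.784%, 0.775% and 0.783% in the wild-type libraries. The means were 1.05% ± 0.0047 in Cox10-/- and 0.781% ± 0.0049 in wild type (SD, n = 3), and the groups did not overlap. In recovered reads, before any size factor, the median member promoter held 228.5, 238 and 224 reads in Cox10-/-, against 196.5, 179.5 and 190.5 in wild type. The Cox10-/- libraries held fewer reads over all regions. Total sequencing depth was not compared, so these raw counts show a larger share of region reads and do not establish a gain. The median member stood at percentile 80.4 of the lead promoters by level in Cox10-/- and at percentile 65.7 in wild type. Of the 72 members, 47 were in the top 25% by level in Cox10-/- and 18 in wild type. By change, 69 lay above the median lead promoter and 53 in the top 25%.

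The smaller fall of members than of other genes also appeared at matched level in the upper 50% of lead promoters, where most members lay. Level here is the mean over all 6 libraries. It includes the Cox10-/- signal, so a promoter that falls less ranks higher, and genes were not matched on wild-type level alone. Among lead promoters in the top 25% by mean level, the 26 members had a median of -0.48 and the other genes -0.86. In the next 25%, which held 36 members, the medians were -0.44 and -0.81. Below the median level there were few members: 3 with a median of -0.76, against -0.80 for other genes, and 7 in the lowest 25% with a median of -0.63, against -0.83.

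The large subunit genes with the smallest changes were Rpl30, Rpl12 and Rpl35. Rpl30, whose protein also takes part in reading selenocysteine codons, had 219, 200.2 and 209.9 normalised reads in the Cox10-/- libraries, against 231, 196 and 208 in the wild-type libraries. Its groups overlapped almost fully, and its log2 fold change was close to 0 (-0.01 ± 0.10 SE, limma adjusted p = 0.91). Rpl12, which sits at the base of the ribosomal stalk, had 300.0, 284 and 274 normalised reads in the Cox10-/- libraries, against 327, 320.5 and 305 in the wild-type libraries. All its Cox10-/- libraries were below wild type by a small margin, which did not pass the test (-0.15 ± 0.09 SE, limma adjusted p = 0.11). Rpl35, near the exit of the nascent chain tunnel, had 149.6, 150.1 and 131 normalised reads in the Cox10-/- libraries, against 194, 151 and 149.5 in the wild-type libraries. The highest wild-type library and the lowest Cox10-/- library stood apart from the rest, and the change did not pass the test (-0.19 ± 0.12 SE, limma adjusted p = 0.11). On the centred scale all 3 were higher, by 0.89, 0.76 and 0.72 (limma adjusted p = 7.1e-16, 2.4e-16 and 1.8e-09). The lead region of Rpl12 reaches within 250 bases of the RefSeq start of Lrsam1, so its signal may include that gene's promoter. Rpl36a also did not pass the test on the deposited scale (-0.37 ± 0.19 SE, limma adjusted p = 0.059). With the mean over all regions of a gene in place of the lead promoter, Rpl12 and Rpl35 were lower (-0.75 and -0.64, limma adjusted p = 1.6e-06 and 2.7e-05), as was Rpsa (-0.42, limma adjusted p = 0.00084).

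The large subunit genes with the largest falls were Rpl39, Rpl36 and Rpl10. Rpl39, a short protein that lines the exit tunnel, had 35.7, 30.7 and 30.3 normalised reads in the Cox10-/- libraries, against 59.9, 50.7 and 61.3 in the wild-type libraries. Every Cox10-/- library was below every wild-type library, and the level was 1.75-fold lower (-0.81 ± 0.20 SE, limma adjusted p = 7.4e-05). The weaker promoter region of Rpl39 had a similar mean level, 38.6 normalised reads against 44.8 at the lead, and a log2 fold change of 0.02. With the mean over all regions of the gene Rpl39 had a log2 fold change of -0.39. Rpl36 had 204, 203 and 178 normalised reads in the Cox10-/- libraries, against 357, 349 and 316 in the wild-type libraries. The groups were far apart, with a 1.74-fold lower level (-0.80 ± 0.10 SE, limma adjusted p = 3.6e-14). Rpl10, which joins the subunit late in its assembly, had 92.6, 79.1 and 75.8 normalised reads in the Cox10-/- libraries, against 125, 136 and 169 in the wild-type libraries, again without overlap (-0.78 ± 0.13 SE, limma adjusted p = 1.9e-08). On the centred scale none of the 3 passed the test, with values of 0.10, 0.10 and 0.13 (limma adjusted p = 0.67, 0.24 and 0.37). Their deposited values were close to the median of other genes, -0.82.

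In the small subunit Rpsa, Rps9 and Rps24 changed least. Rpsa, known also as the laminin receptor, had 191, 181 and 189 normalised reads in the Cox10-/- libraries, against 197, 179 and 194 in the wild-type libraries. The groups overlapped, and the change did not pass the test (-0.02 ± 0.11 SE, limma adjusted p = 0.83). Rps9, at the mRNA entry channel, had 195, 203 and 168 normalised reads in the Cox10-/- libraries, against 229, 241 and 198 in the wild-type libraries. The groups overlapped at their edge, and the fall passed the test (-0.24 ± 0.10 SE, limma adjusted p = 0.028) but not by DESeq2 (adjusted p = 0.080). Its call was also lost without Cox10-/- replicate 3, wild-type replicate 1 or wild-type replicate 2, with log2 fold changes of -0.16, -0.21 and -0.18. Rps24, one of the genes mutated in Diamond-Blackfan anaemia in people, had 159.8, 169 and 172 normalised reads in the Cox10-/- libraries, against 209, 214 and 184 in the wild-type libraries, without overlap (-0.27 ± 0.11 SE, limma adjusted p = 0.013), and its call was lost without wild-type replicate 2 (-0.23). Centred, all 3 were higher, by 0.88, 0.67 and 0.63 (limma adjusted p = 1.2e-14, 1.5e-10 and 5.3e-09).

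Rps21 and Rps18 were among the small subunit genes that fell furthest. Rps21 had 134, 119 and 137 normalised reads in the Cox10-/- libraries, against 226, 222 and 251 in the wild-type libraries, a 1.79-fold lower level (-0.84 ± 0.11 SE, limma adjusted p = 1.9e-12). Rps18, in the head of the small subunit, had 163, 158 and 159.9 normalised reads in the Cox10-/- libraries, against 282, 257 and 282 in the wild-type libraries, 1.70-fold lower (-0.77 ± 0.10 SE, limma adjusted p = 4.9e-12). The Cox10-/- libraries of Rps18 lay within a few reads of each other and well under wild type. Its lead region also reaches within 250 bases of the start of Vps52. Neither passed the test after centring (0.07 and 0.14, limma adjusted p = 0.54 and 0.15).

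Other members that did not pass the centred test included Rps16, Rpl36al, Rpl28, Rps27 and Rpl23a, whose centred values ran from 0.15 to 0.28. On the deposited scale each of the 11 members without a centred call was lower.

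Among the stalk proteins, which recruit the elongation factors to the ribosome, acetylation was lower at all 3 lead promoters. Rplp0, the base of the stalk, had 114, 145 and 123 normalised reads in the Cox10-/- libraries, against 193, 156 and 173 in the wild-type libraries. The groups did not overlap, and the level was 1.36-fold lower (-0.45 ± 0.12 SE, limma adjusted p = 0.00022). Rplp2, one of its acidic partners, had 291, 245 and 276 normalised reads in the Cox10-/- libraries, against 363, 396 and 404 in the wild-type libraries, 1.43-fold lower (-0.52 ± 0.09 SE, limma adjusted p = 6.3e-08). Rplp1, the other acidic partner, had 141, 152 and 125 normalised reads in the Cox10-/- libraries, against 176, 159 and 170.0 in the wild-type libraries, 1.21-fold lower (-0.27 ± 0.12 SE, limma adjusted p = 0.02), a call lost by DESeq2 (adjusted p = 0.070) and without Cox10-/- replicate 3 or wild-type replicate 1 or 3 (-0.20, -0.24 and -0.27). All 3 were higher after centring, by 0.46, 0.39 and 0.63.

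Rpl5 and Rpl11 carry the 5S rRNA into the large subunit and, when ribosome assembly fails, bind Mdm2 and release p53. Rpl11 had 241, 244 and 215 normalised reads in the Cox10-/- libraries, against 338, 333 and 335 in the wild-type libraries. The wild-type libraries were nearly equal, and all Cox10-/- libraries were lower (1.44-fold, -0.52 ± 0.09 SE, limma adjusted p = 1.4e-07). Rpl5 had 246, 215 and 171 normalised reads in the Cox10-/- libraries, against 261, 269.8 and 208 in the wild-type libraries. Its groups overlapped, and its fall passed the test with all libraries (-0.23 ± 0.10 SE, limma adjusted p = 0.03) but not by DESeq2 (adjusted p = 0.12). Without Cox10-/- replicate 3, wild-type replicate 1 or wild-type replicate 2 the log2 fold change of Rpl5 was -0.09, -0.18 and -0.16 and did not pass. After centring both were higher, Rpl11 by 0.38 and Rpl5 by 0.68.

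Rps6, the ribosomal protein that the S6 kinases phosphorylate downstream of mTORC1, had 278, 299 and 259.9 normalised reads in the Cox10-/- libraries, against 429.7, 396 and 389.8 in the wild-type libraries. Its level was 1.45-fold lower without overlap (-0.54 ± 0.09 SE, limma adjusted p = 1.3e-08). Rps19, the gene most often mutated in Diamond-Blackfan anaemia in people, had 282, 276 and 233 normalised reads in the Cox10-/- libraries, against 378, 327 and 353 in the wild-type libraries, 1.34-fold lower (-0.42 ± 0.09 SE, limma adjusted p = 1.3e-05). Both were close to the family median, and both were higher after centring (0.37 and 0.49).

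**Figure D3:**
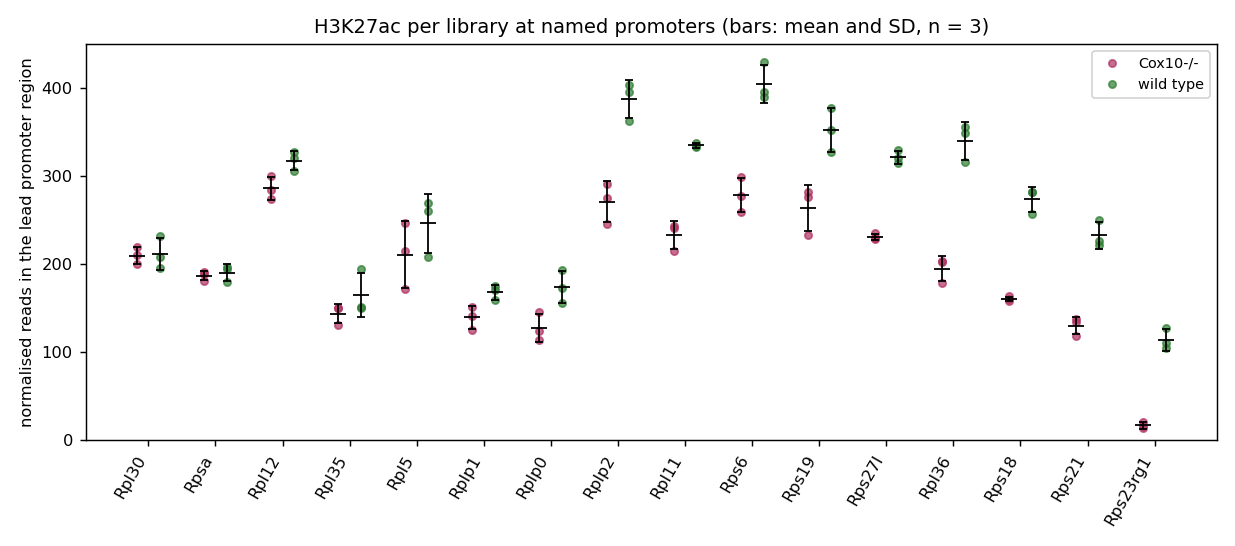
Normalised reads in the lead promoter region (y axis) of 16 named genes, with a point for each library, Cox10-/- to the left of wild type, and bars for the mean and SD (n = 3). The groups overlap at Rpl30, Rpsa, Rpl35 and Rpl5 and are apart elsewhere, with the largest fold change at Rps23rg1.

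The relatives of ribosomal proteins did not behave alike. Rpl22, a ribosomal protein that in mice represses its paralog Rpl22l1, averaged 127 ± 12.5 normalised reads in Cox10-/- and 191 ± 14.6 in wild type (-0.59 ± 0.11 SE, limma adjusted p = 9.7e-07). Rpl22l1 averaged 138 ± 6.53 in Cox10-/- and 188 ± 19.7 in wild type (SD, n = 3; -0.43 ± 0.11 SE, limma adjusted p = 0.0002). Rps27l, a paralog of Rps27 known as a p53 target, had 229, 235 and 228 normalised reads in the Cox10-/- libraries, against 321, 315 and 329.7 in the wild-type libraries. Its libraries were tight within each genotype, and the level was 1.39-fold lower (-0.48 ± 0.09 SE, limma adjusted p = 1.4e-06). Rpl36al, an intronless copy of Rpl36a, averaged 142 ± 13.8 in Cox10-/- and 241 ± 19.3 in wild type (SD, n = 3; -0.75 ± 0.11 SE, limma adjusted p = 7.4e-11), in a region that also reaches within 250 bases of the start of Mgat2. Rpl3l, a paralog of Rpl3 known from muscle, had 56.9, 66.2 and 53.0 normalised reads in the Cox10-/- libraries, against 85.1, 54.8 and 60.1 in the wild-type libraries, with overlap (-0.16 ± 0.17 SE, limma adjusted p = 0.35). Its region reaches within 250 bases of the start of Msrb1, so its signal may include that gene's promoter. After centring Rpl22, Rpl22l1, Rps27l and Rpl3l were higher (0.32, 0.47, 0.43 and 0.75), and Rpl36al did not pass the test (0.15).

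Rps23rg1 stood apart from every other member. This mouse gene is a retrotransposed copy of Rps23 and not a ribosomal protein gene proper. It had 20.4, 16.1 and 12.9 normalised reads in the Cox10-/- libraries, against 128, 104 and 109.9 in the wild-type libraries. The highest Cox10-/- library was far below the lowest wild-type library, a 6.66-fold lower level (-2.73 ± 0.20 SE, limma adjusted p = 1.0e-30). It stayed lower after centring, at -1.83 (limma adjusted p = 1.5e-14). Its parent Rps23 changed as the rest of the family did (-0.49 ± 0.11 SE, limma adjusted p = 1.5e-05). Without the relatives, 62 of 67 lead promoters were lower on the deposited scale, beside 93.8% of all lead promoters. After centring 57 of the 67 were higher and 0 lower, where 32% of all lead promoters were higher and 22% lower.

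Regions of these genes other than the lead promoter had larger falls in the median. The family had 126 regions: 117 within 1 kb of a start, 1 at 2 to 3 kb and 8 called distal intergenic, and 33 genes had 1 region while 27 had 2, 9 had 3 and 3 had 4. Over all 126 regions, 115 were lower and 0 higher on the scale as deposited, with a median of -0.60 against -1.04 over all regions, of which 87.2% were lower and 4.46% higher. After centring 73 of the 126 were higher and 13 lower, where 24.7% of all regions were higher and 39.6% lower. At the 45 weaker promoter regions the median was -0.72, against -0.98 for all weaker promoter regions. After centring 12 of these 45 were higher and 8 lower, where 21% of all weaker promoter regions were higher and 31.2% lower. All 9 regions away from promoters were lower, with a median of -1.08, against -1.28 over all such regions, of which 83.2% were lower. After centring 1 of the 9 was higher and 4 lower, where 22.4% of such regions were higher and 50.6% lower. A region there carries the name of its nearest gene and need not act on it.

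Among regions away from promoters, the largest changes were 2 intergenic regions named for Rplp1, on chromosome 9 at chr9:61812895-61813303 and chr9:61826586-61826922 (mm10). They averaged 19.7 ± 3.97 and 17.1 ± 7.33 normalised reads in Cox10-/-, against 98.1 ± 4.22 and 75.7 ± 9.53 in wild type (SD, n = 3), 4.86-fold and 4.44-fold lower, and both were lower after centring too (-1.37 and -1.24). The second also lies within 250 bases of the RefSeq start of Gm34828. The Rplp1 lead promoter, by contrast, was 1.21-fold lower, and its weaker promoter region averaged 87.8 ± 10.4 in Cox10-/- and 149 ± 12.8 in wild type. A region 2 to 3 kb from the start of Rps16 averaged 22.1 ± 2.53 in Cox10-/- and 63.6 ± 2.68 in wild type, 2.80-fold lower (-0.58 after centring, limma adjusted p = 0.01). Rps14, with 4 regions, had intergenic changes of -1.39, -1.06 and -0.81 beside -0.53 at its lead promoter, and after centring the first of these was lower (limma adjusted p = 0.0043) while the other intergenic regions did not pass. Intergenic regions named for Rpl37a and Rpl5 had log2 fold changes of -1.08 and -1.05, and neither passed the test after centring. Rps10, with 4 promoter regions, had -0.44 at the lead region and -0.90, -1.30 and -1.78 at the others, in order away from it, of which the last 2 were lower after centring (-0.40 and -0.87). These 3 genes (Rplp1, Rps14 and Rps10) had the most regions, and each changed least at the lead promoter. The lead is the promoter region with the highest mean over both genotypes, which favours a region that kept its signal in Cox10-/-. Over all genes the medians were -0.82 at lead promoters and -0.98 at weaker promoter regions. At Rpl36 the lead region at chr17:56613398-56614643 was 1.74-fold lower, while its 2 weaker promoter regions averaged 34.5 ± 4.59 and 27.7 ± 4.01 in Cox10-/-, against 156 ± 28.6 and 122 ± 9.06 in wild type, 4.39-fold and 4.31-fold lower (mm10, SD, n = 3), and these were lower after centring (-1.23 and -1.20). These weaker regions of Rpl36 were singled out after their values were seen.

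Promoter regions before the start fell further than those at or after it in most members that had both. Of the 72 members, 53 had a RefSeq start near the lead region, and the median lead region ran from 18 bases after the start to 762 after it, against 21 to 610 for other genes. In 26 members with a region before the start and another at or after it, the median was -0.74 before and -0.44 at or after the start. The region before the start fell further in 19 of these 26 genes (73.1%), against 56.9% of 2171 other genes, whose medians were -0.94 and -0.85. Of the members' weaker promoter regions, 28 lay wholly before the start, 5 wholly after it and 1 across it. Position in members is thus nearly the same split as weaker against lead region, and the 2 were not separated. Outside the family, weaker regions had medians of -0.96 before the start and -0.95 after it. The lead region lay wholly before the start in 5 members, with a median of -0.76, and Rps21 and Rpl39, both among the largest falls, were among them. At Rpl39, singled out with Rpsa and Rpl12 after their values were seen, the weaker region after the start had a log2 fold change of 0.02, against -0.81 at the lead. At Rpsa the values were -0.81 before the start and -0.02 at or after it, and at Rpl12 -1.37 and -0.15. Both Rpl12 regions lie within 250 bases of the RefSeq start of Lrsam1.

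**Figure D4:**
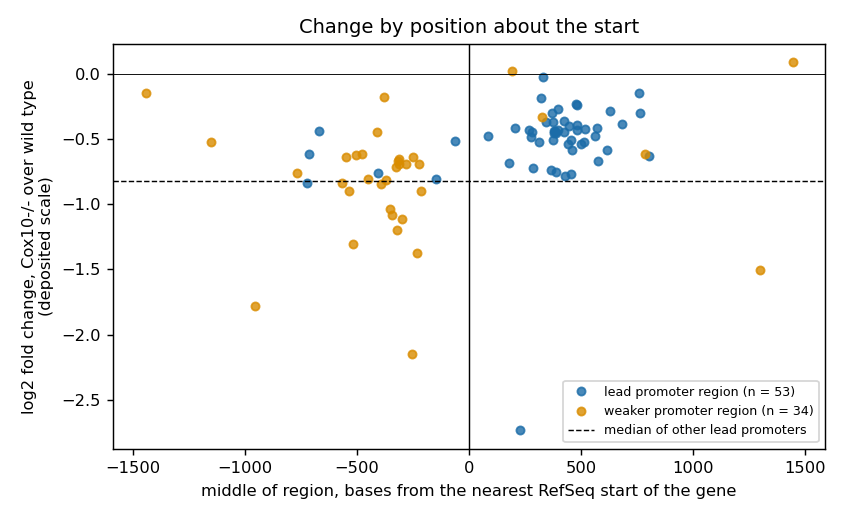
Log2 fold change (y axis, Cox10-/- over wild type, deposited scale) against the middle of each promoter region in bases from the nearest RefSeq start of its gene (x axis), for 53 lead and 34 weaker promoter regions of the family. Most regions after the start lie above the dashed median of other lead promoters (-0.82), while regions before it spread lower.

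The promoters of the family differed from others in sequence, by counts that carry no test. In the RefSeq windows from 250 bases before to 50 after the start, CTTTC on the coding strand within 50 bases of the start was in 27 of 53 member promoters (50.9%), against 9.36% of 6836 other promoters. A pyrimidine run of at least 7 bases that reached within 5 bases of the start was in 22 members (41.5%) and in 13.0% of others. Such a run need not begin at the start or with a cytosine, so these are not counts of TOP tracts. CCGGAAG, which ETS factors bind, was in 41.5% of members and 20.4% of others. GGGCGG, which SP and KLF factors bind, was in 58.5% of members and 68.0% of others. AAGATGGC (YY1) was in 5.66% of members and 5.24% of others, and CACGTG (the E-box) in 9.43% of members and 10.6% of others. TATAAA was in 11.3% of members and 6.57% of others, and TGATGCAA (ATF4 and CEBP) in 0 of 53 members and 0.629% of others. A match is a run of letters, not a bound site.

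Within the family, medians with and without these letters differed by little for most motifs. Members with CCGGAAG had a median of -0.45 and those without it -0.46. For GGGCGG the medians were -0.44 with it and -0.52 without it, and for AAGATGGC, held by 3 members, -0.63 and -0.45. For CACGTG they were -0.42 and -0.47, and for TATAAA -0.44 and -0.46, over 5 and 6 members with the motif. For the pyrimidine run the medians were -0.47 with it and -0.46 without it. In the printed sequences, Rpl35 held the longest run at the start, of 18 bases, with a log2 fold change of -0.19. Rps18 held a run of 11 bases, with one of -0.77. Among other genes the medians were -0.80 with a run and -0.82 without it.

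Other genes of ribosome production had medians between those of the family and of all other genes. Of 54 listed ribosome assembly factors 40 had a lead promoter, and 32 were lower, 0 higher and 8 did not pass, with a median of -0.69 beside the family's -0.46. Over all lead promoters 93.8% were lower. Nat10, an rRNA acetyltransferase, was lowest (-1.13, limma adjusted p = 2.9e-14) and Mybbp1a, a nucleolar Myb partner, highest without passing the test (0.25, limma adjusted p = 0.087). Of 17 listed RNA polymerase I genes 9 were measured, 8 of them lower, with a median of -0.67, from Taf1a (-1.45, limma adjusted p = 2.3e-10) to Taf1c (-0.27, limma adjusted p = 0.1). After centring 19 of the 40 assembly factors were higher and 0 lower, and 4 of the 9 polymerase I genes were higher and 1 lower, where 32% of all lead promoters were higher and 22% lower.

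A list of elongation factors and other TOP genes and a list of small nucleolar RNA hosts had medians nearer to the family's. Of 12 genes on the first list 9 were measured and all 9 were lower, beside 93.8% of all lead promoters, with a median of -0.53. They ran from Eef2k, listed as the kinase of elongation factor 2 and not itself an elongation factor (-1.57, limma adjusted p = 9.4e-23), to Nap1l1, a histone chaperone (-0.26, limma adjusted p = 0.037). After centring 7 of the 9 were higher and 1 lower. Of 16 listed hosts of small nucleolar RNAs 9 were measured and 8 were lower, with a median of -0.56, from Snhg3 (-1.003, limma adjusted p = 3.7e-16) to Snhg15 (-0.04, limma adjusted p = 0.69), and 7 were higher and 0 lower after centring, beside 32% and 22% of all lead promoters. Fau, a fusion of a ubiquitin-like and a ribosomal protein, was lower on the deposited scale (-0.48, limma adjusted p = 4.7e-06) and higher after centring (0.42).

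The regulators of TOP mRNAs and of ribosome production had a share of lower calls near the background. Of 13 genes, all measured, 12 were lower and 1 higher before centring, beside 93.8% and 0.807% of all lead promoters, with a median of -0.77, against -0.82 outside the family. Larp1, the TOP-binding repressor, averaged 204 ± 11.5 normalised reads in Cox10-/- and 512 ± 68.5 in wild type (-1.32, limma adjusted p = 2.3e-32), and was lower after centring too (-0.41). Myc, a transcription factor that drives ribosomal genes, averaged 692 ± 58.7 in Cox10-/- and 539 ± 25.5 in wild type (0.36, limma adjusted p = 7.7e-06), and was higher on both scales. After centring 3 of the 13 were higher, 2 lower and 8 not called.

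**Figure D5:**
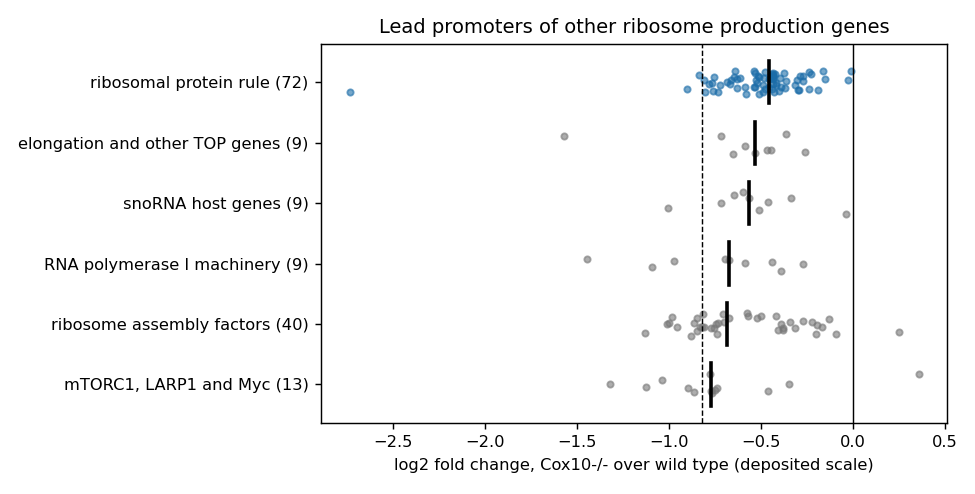
Log2 fold change at lead promoters (x axis, Cox10-/- over wild type, deposited scale) for the 72 genes of the ribosomal protein rule and, below them, other lists of ribosome production genes, with a point for each gene and a black bar at each median. The family median of -0.46 lies nearest to 0, the regulators' median of -0.77 lies farthest, and the dashed line is the median of all lead promoters outside the family, -0.82.

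In the authors' deposited table of fold changes, 63 of the 72 lead promoters were lower and 0 higher at an adjusted p under 0.05, with a median of -0.46. The 3 fewer calls were Rps9, Rplp1 and Rpl5. Of all 9663 lead promoters the authors' deposited table called 8862 lower and 58 higher, with a median of -0.82. Of the family's 126 regions it called 111 lower and 0 higher. DESeq2 on the recovered reads called 30860 of all 36387 regions lower and 1299 higher. Another gene's RefSeq start lay within 250 bases of 13 lead promoters. The other 59 gave 55 lower and 0 higher on the deposited scale, and 50 higher and 1 lower after centring, with medians of -0.46 and 0.45. By limma 93.8% of all lead promoters were lower and 0.807% higher, and after centring 32% were higher and 22% lower. Regions named for pseudogenes of the family, which the rule leaves out, numbered 67, of which 4 were promoter regions. The median over the 67 was -1.33, close to the -1.28 over all regions away from promoters. Ribosomal protein genes have many near-identical processed copies, and how the authors placed reads that match several is not stated, so values at exons shared with copies are uncertain.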

How the data were processed

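H3K27ac ChIP-seq was analysed in 6 libraries. The authors deposited 1 table of regions that holds a normalised read signal for each library and, per the file headers, their log2 fold change with its SE and test statistic (scores), p-value and adjusted p. Its annotation supplied gene names. The submitters' processing notes name BWA 0.7.5, MACS, deepTools 3.5.0 and mm10, but no roles. Multiplied by a factor per library, 100% of the deposited signal values came out as whole reads within 0.01 reads. Of 36446 listed regions, 59 repeats were dropped. The base from which the table counts coordinates is not stated.

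Regions were tested with limma 3.58.1 (R 4.3.3, trend, no block) on log2(value + 1), which understates changes at low levels, with Benjamini-Hochberg adjustment over all 36387 regions. No filter was set. The centred fit subtracts each library's median log2 level over promoter regions. On the recovered reads with the deposited size factors, edgeR 4.0.16 called 31769 regions lower and 1608 higher, and DESeq2 1.42.0 called 30860 and 1299. Scripts were tested on simulated data. Member lead promoters held 17 to 538 recovered reads in a library. Every count of 0 given for limma stayed 0 at an unadjusted p under 0.05.

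Promoter sequences and starts are RefSeq's (GRCm38.p6), matched by symbol for 53 of 72 genes. Named genes are the 3 largest and 3 smallest changes of each subunit (an item among them is not reported here), preset genes of known role, the strongest changes away from promoters, the genes with most regions, and the ends of each list. Genes, lists and motifs were chosen with earlier results of these data known.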

Additional observations from a re-analysis of the deposited data

How the results depend on the processing

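Of 182 alternative values of the family's counts and medians, 169 kept their direction and stayed within the set margin of the reported value, and 13 moved. On the deposited scale none moved: member lead promoters called lower numbered 55 to 70 over all alternatives, the lowest over the 59 genes without another start nearby, and 0 were higher. The centred median of lead promoters, 0.45 as reported, was 0.41 with the mean over all regions of a gene (3 lower), 0.60 when centred on all regions, 0.59 with edgeR TMM and 0.59 with DESeq2's median of ratios. Over all 126 regions it was 0.45 under each of the last 3, and 0.28 to 0.34 with 1 library left out. Centred regions called lower numbered 8 when centred on all regions, 7 with DESeq2's median of ratios and 8 at an adjusted p under 0.01, against 13 as reported, and 9 to 12 with 1 library left out. With only the ribosomal proteins proper, an alternative added after seeing the data, 0 lead promoters were lower after centring, beside 22% of all lead promoters.

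Among named genes, values near 0 turned sign when 1 library was left out: Rpl30 (-0.067 to 0.053), Rpsa (-0.066 to 0.0010) and Rpl3l (-0.29 to 0.027) on the deposited scale, and Rps21 (-0.020 to 0.15) after centring. With the mean over all regions of a gene, the centred values were -0.72 for Rpl36, -0.094 for Rps18 and -0.40 for Rplp1, each of which has further regions with lower values than its lead promoter. On the deposited scale the same setting gave -0.75 for Rpl12, -0.64 for Rpl35 and -0.42 for Rpsa (limma adjusted p = 1.6e-06, 2.7e-05 and 0.00084), which had no call at their lead promoters. The calls of Rps9, Rplp1, Rpl5 and Rps24 were lost at an adjusted p under 0.01.

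Same-numbered libraries of the 2 genotypes did not deviate together, with correlations of -0.0009 to 0.0074, so the numbers were not taken as pairs. With the replicate number as a block, 66 lead promoters were lower and 60 higher after centring, and the medians were -0.46 and 0.45. In 7 of the 72 genes the lead promoter lay in the lowest 25% by level, where counting error is largest.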

Other observations

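The family's lead promoters had a median width of 834 bases, against 649 bases over genes outside it. At matched level they were wider only in the class that held 3 members. In the top 25% by mean level the 26 members had a median of 1066.5 bases and other genes 1358.5. In the next 25% the 36 members had 786.5 and other genes 791. The 3 members in the next had 636, against 535, and the 7 in the lowest 25% had 314, against 328. Of the 4 members on the X chromosome, Rpl39 and Rpl10 were among the largest falls of the large subunit at the lead promoter (-0.81 and -0.78). Rps4x had a log2 fold change of -0.52 there and Rpl36a one of -0.37. These genes were singled out after their values were seen, and no test was made.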
